A study of Homo sapiens with 6 samples.

Results

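The Deltex family of ubiquitin ligases and the PARP enzymes that work with them were followed in HEK293T cells labelled as knocked out for SMARCA3 and in wild-type HEK293T cells. The 9 genes are DTX1, DTX2, DTX3, DTX3L, DTX4, PARP9, PARP14, PARP10 and PARP12, taken by symbol from a table of 56832 gene symbols. DTX3, DTX3L and PARP9 were selected on their loss in the knockout libraries, so their values in the 2 groups are a description and carry no test. The other 6 genes belong to the same family or partner the same complex.

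HEK293T is an adherent line from human embryonic kidney that expresses the SV40 large T antigen. SMARCA3 is the protein of the HLTF gene, a SNF2-family helicase with a RING ubiquitin ligase domain, and the study concerns its action on histone H3 and on H3K9 trimethylation. There were 3 knockout and 3 wild-type libraries of poly(A)-selected RNA from untreated cells grown in the same medium. The labels give neither the way the gene was disrupted, nor whether the knockout is 1 clone, nor whether replicates were separate cultures. The p-values therefore cover no more than the spread among these 6 libraries, and that spread may be technical.

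Deltex proteins share a RING domain followed by a C-terminal Deltex domain that binds ADP-ribose. Deltex was found in Drosophila as a regulator of Notch, and DTX1, DTX2 and DTX4 carry the WWE domains that bind the Notch intracellular domain, whereas DTX3 and DTX3L lack them. DTX3L forms a complex with PARP9, a macrodomain protein, that is known for ubiquitylation of histones at damaged DNA and for interferon responses, and the genes of this pair lie head to head. PARP14, PARP10 and PARP12 are mono-ADP-ribosyltransferases, and PARP9, DTX3L, PARP14 and PARP12 are known as interferon-stimulated genes.

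The promoters are shown because the shared start region of DTX3L and PARP9 is the one place in the family where a pair of lost transcripts begins. Sequences are RefSeq windows of build GRCh38.p14, from 250 bases before to 50 bases after a transcript start, 5′ to 3′ on the strand of the gene, and capitals mark the core of the interferon-stimulated response element (ISRE), searched as GAAANNGAA on both strands. The 4 windows are chr3:122564088-122564387 on the plus strand for DTX3L, chr3:122564251-122564550 on the minus strand for the PARP9 start nearer to DTX3L, chr3:122680589-122680888 on the plus strand for PARP14 and chr7:140062902-140063201 on the minus strand for PARP12.
DTX3L: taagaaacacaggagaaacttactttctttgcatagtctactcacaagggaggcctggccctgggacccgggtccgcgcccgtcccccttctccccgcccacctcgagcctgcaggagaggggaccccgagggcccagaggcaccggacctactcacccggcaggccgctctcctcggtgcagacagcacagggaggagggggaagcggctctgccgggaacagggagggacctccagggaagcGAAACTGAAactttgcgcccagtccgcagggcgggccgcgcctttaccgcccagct
PARP9: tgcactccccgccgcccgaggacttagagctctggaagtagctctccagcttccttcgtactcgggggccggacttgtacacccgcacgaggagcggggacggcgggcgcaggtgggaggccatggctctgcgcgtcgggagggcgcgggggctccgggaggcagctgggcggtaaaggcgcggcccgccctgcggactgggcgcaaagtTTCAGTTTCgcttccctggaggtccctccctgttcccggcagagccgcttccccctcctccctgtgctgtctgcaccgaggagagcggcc
PARP14: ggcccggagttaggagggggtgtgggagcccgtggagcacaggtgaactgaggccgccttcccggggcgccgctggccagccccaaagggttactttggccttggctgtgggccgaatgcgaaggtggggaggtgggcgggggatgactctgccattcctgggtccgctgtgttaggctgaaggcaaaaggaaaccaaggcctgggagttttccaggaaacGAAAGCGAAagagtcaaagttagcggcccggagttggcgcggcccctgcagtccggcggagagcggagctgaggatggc
PARP12: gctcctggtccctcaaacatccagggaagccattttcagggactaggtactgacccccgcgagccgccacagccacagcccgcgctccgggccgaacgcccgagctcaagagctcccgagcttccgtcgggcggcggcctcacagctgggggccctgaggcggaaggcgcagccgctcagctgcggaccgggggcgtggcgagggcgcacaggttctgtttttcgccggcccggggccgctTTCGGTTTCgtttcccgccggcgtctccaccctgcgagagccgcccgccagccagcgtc

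In DTX3L and PARP9 the capitals are the same 9 bases, at chr3:122564332-122564340, read on opposite strands. They begin 6 bases before the DTX3L start and 40 bases before the PARP9 start, and 37 bases lie between the starts. The match begins 29 bases before the start in PARP14 and 9 bases before it in PARP12. An ISRE core stood in 4 of the 8 windows used here, which belong to 6 members, and in 8.11% of 35116 RefSeq windows of the same length. No window of DTX1, DTX3 or PARP10 was used, so this is not a share over all 9 genes. The windows of DTX3L and PARP9 share their match, so these 4 are not separate, and a second PARP9 window farther upstream held no match. DTX2 held the RBPJ core letters TGGGAA 59 bases before its start, as did 24% of all windows somewhere in their length, both strands searched. The windows of DTX4 and the second PARP9 window held neither motif. A match is a run of letters and not a measured binding site.

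The libraries held 33125811 to 36804337 counts in the knockout and 38199454 to 41593655 in the wild type. HLTF itself, at chr3:149030127-149086554 on the minus strand, gave 141, 140 and 149 CPM (counts per 1000000) in the knockout, against 215, 191 and 195 CPM in the wild type. Its mRNA was present in every library labelled as knockout and fell by 0.48 ± 0.05 on the log2 scale (SE, edgeR quasi-likelihood test, adjusted p = 4.65e-05). Of the 40 expressed genes nearest to it, 27 were called lower and 4 higher, with a median of -0.50 on the log2 scale, and HLTF differed from that median by 0.017 (adjusted p = 0.836). The HLTF mRNA level thus does not by itself check the knockout label. Among markers of other cell types, CD3E, CD3D and MS4A1 of immune cells and DCN of fibroblasts had 0 counts in all 6 libraries. The 9 immune markers summed to 3.03 to 3.69 CPM in the knockout and 2.53 to 3.83 CPM in the wild type, and CD14, a monocyte marker, had an edgeR adjusted p of 0.395. SIX2, a kidney progenitor factor, measured 17.4 ± 1.66 CPM in the knockout and 24.1 ± 1.68 CPM in the wild type (SD, n = 3 each), while UMOD and KRT19 had 0 counts. Of 9 tested epithelial and kidney markers, 1 was called higher and 5 lower, and of 7 neural markers known from HEK293 cells 1 was called higher and 3 lower. That is 66.7% and 57.1% called, against 31.8% of all tested genes. Their part in the results below was not tested.

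DTX3L and PARP9, the ligase and its macrodomain partner, were almost without reads in the knockout. DTX3L, at chr3:122564238-122575203 on the plus strand, had 0 counts in each of the 3 knockout libraries, against 48, 33 and 28 counts in the wild-type libraries. Every wild-type library was above every knockout library, which follows from the choice of DTX3L for its loss. The groups did not overlap for 45.6% of all tested genes. With the knockout group set to a floor of 3 counts, DTX3L was 31.9-fold lower there, or at 3.13% of the wild-type level. The 95% counting interval reached down to 25.5-fold, so the value at the floor is not a strict bound. The wild-type level averaged 0.913 ± 0.219 CPM (SD, n = 3). PARP9, at chr3:122527924-122564577 on the minus strand, had 1, 0 and 0 counts in the knockout libraries and 31, 28 and 24 counts in the wild-type libraries. With its single knockout count, the wild type over the knockout came to 72.9 (95% counting interval 12.7 to 2914). At the floor used for DTX3L, PARP9 would stand at 4.12% of the wild-type level, so no order between the pair was read. Without knockout replicate 1, which held that count, the knockout had 0 counts and the value at the floor was 6.19%. Without knockout replicate 2 PARP9 was at 2.12%, against 1.37% over all libraries. The value at the floor for DTX3L was 4.71% without knockout replicate 1 and 4.85% without knockout replicate 2. PARP9 averaged 0.00971 ± 0.0168 CPM in the knockout and 0.698 ± 0.0614 CPM in the wild type (SD, n = 3 each). The annotated exons of the pair overlap by 217 bases on opposite strands, and since the strand setting of the counting is not given, reads there may not have been assigned to 1 of them. In bulk samples, fewer cells that express a gene and less RNA per cell cannot be told apart.

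DTX3, a Deltex ligase without WWE domains at chr12:57604622-57609804 on the plus strand, had 1 count in each of the 3 knockout libraries. The wild-type libraries had 133, 193 and 177 counts. The groups were thus far apart, with 3 counts over the knockout libraries and 503 over the wild-type libraries. The level was 0.0289 ± 0.00159 CPM in the knockout and 4.27 ± 0.932 CPM in the wild type (SD, n = 3 each), and the wild type over the knockout came to 147 (95% counting interval 50.1 to 716.5). As background for this kind of loss, 15396 tested genes had at least 20 counts in each wild-type library, and 17 of them, or 0.11%, had at most 3 counts over the knockout libraries. DTX3, DTX3L and PARP9 are 3 of those 17 by the way they were chosen, and the limits on counts were set after their values were seen.

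**Figure D1:**
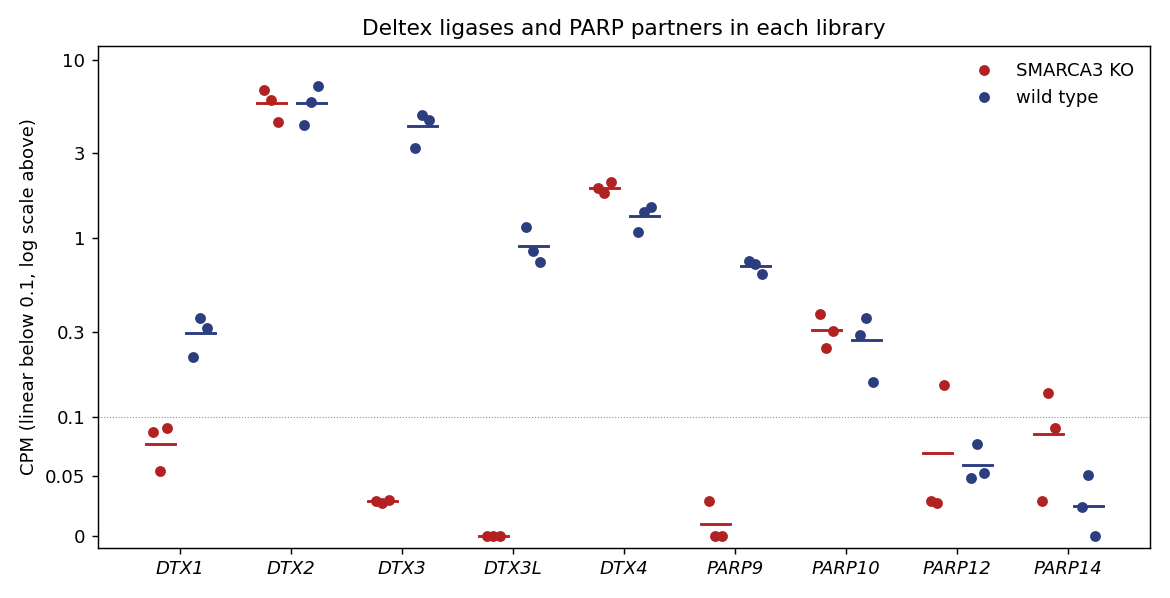
The CPM of each of the 9 genes is drawn for every library on an axis that is linear below 0.1 and logarithmic above it, with SMARCA3 knockout libraries in red left of wild-type libraries in blue and a bar at the mean of 3. DTX3, DTX3L and PARP9 lie at or near 0 in the knockout, DTX4 is higher in every knockout library, and DTX2, PARP10, PARP12 and PARP14 overlap between the groups.

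Of the 9 genes, 6 passed the filter on low counts among 18061 genes tested, and DTX3, DTX3L and PARP9 passed through the wild-type libraries alone. Over all tested genes 31.8% were called at an adjusted p under 0.05, 14% higher and 17.7% lower in the knockout. Of the 3 tested members that were not picked for their loss, which are DTX2, DTX4 and PARP10, 1 was called, and it was higher. The remaining members, DTX1, PARP12 and PARP14, had too few reads for the test.

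DTX4, a WWE-domain Deltex ligase known to act on Notch1 and on the kinase TBK1, had 66, 66 and 68 counts in the knockout and 45, 55 and 57 counts in the wild type. This was 1.92, 1.79 and 2.06 CPM in the knockout, against 1.08, 1.41 and 1.49 CPM in the wild type. Every knockout library was above every wild-type library, as was so in one direction or the other for 45.6% of all tested genes. DTX4 rose by 0.53 ± 0.16 on the log2 scale (SE, edgeR, adjusted p = 0.0269, higher in 3 of 3 libraries), and an exact two-sided permutation test gave p = 0.1, the smallest that 3 against 3 allows. The call was lost in 5 of 14 alternatives, among them DESeq2 (adjusted p = 0.0941) and the fits without knockout replicate 1 (edgeR, adjusted p = 0.0574), knockout replicate 3 (0.0889) or wild-type replicate 1 (0.0749). DTX4 lies at chr11:59171430-59208587 on the plus strand, and the median over its 40 expressed neighbours was 0.00 on the log2 scale. Its exons overlap 78 bases of MPEG1, a macrophage gene that had 0 counts in all libraries.

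DTX2, a broadly expressed WWE-domain member, had 6.79, 6.00 and 4.51 CPM in the knockout and 4.31, 5.83 and 7.13 CPM in the wild type. The libraries of the groups were interspersed. The means were 5.77 ± 1.15 CPM in the knockout and 5.76 ± 1.41 CPM in the wild type (SD, n = 3 each), a log2 difference of 0.01 ± 0.18 (SE, edgeR, adjusted p = 0.979). DTX2 lies at chr7:76461676-76505995 on the plus strand, and its exons overlap 120 bases of FDPSP2 on the other strand. Its copy DTX2P1 had 2 counts in the knockout and 1 in the wild type in all. Of 3 near-identical copies of members that were listed, DTX2P1 was the 1 among the gene symbols counted.

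DTX1, the best studied mammalian Deltex in Notch signalling and T cells, was close to the limit of detection. Its counts were 3, 2 and 3 in the knockout, against 9, 14 and 12 in the wild type. Every wild-type library was thus above every knockout library. The groups were apart in one direction or the other for 45.6% of all tested genes, which do not include DTX1. The wild type over the knockout came to 3.84 (95% counting interval 1.75 to 9.59), on levels of 0.0775 ± 0.0202 CPM in the knockout and 0.297 ± 0.0728 CPM in the wild type (SD, n = 3 each). DTX1 did not pass the filter. With no filter, edgeR put it at -1.91 ± 0.53 on the log2 scale (SE, adjusted p = 0.00333). The adjusted p-values of that fit are not comparable with those of the filtered fit. For HLTF, edgeR gave 4.38e-19 with no filter, against 4.65e-05 with the filter. The exact permutation test of DTX1 gave p = 0.1, its smallest value. DTX1 lies at chr12:113056709-113098028 on the plus strand.

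The 3 mono-ADP-ribosyltransferases had few reads in either group. PARP10, which modifies acidic residues of its targets, had 13, 9 and 10 counts in the knockout and 12, 14 and 6 counts in the wild type. The groups overlapped, and the log2 difference was 0.19 ± 0.36 (SE, edgeR, adjusted p = 0.735). PARP10, at chr8:143977153-144012772 on the minus strand, shares 324 bases of exon with GRINA on the other strand, which had 2827 to 3161 counts in the knockout and 3380 to 3867 in the wild type.

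PARP14, a macrodomain enzyme known as a coactivator of STAT6, had 1, 5 and 3 counts in the knockout and 1, 2 and 0 counts in the wild type. The groups overlapped, and the wild type over the knockout came to 0.293 (95% counting interval 0.051 to 1.17). PARP14, at chr3:122680618-122730840 on the plus strand, lies 116 kb from DTX3L. PARP12, a zinc-finger enzyme at chr7:140023744-140063721 on the minus strand, had 1, 1 and 5 counts in the knockout and 2, 3 and 2 counts in the wild type. That made 7 counts in each group, and the wild type over the knockout came to 0.878 (95% counting interval 0.263 to 2.93). At this depth, 3 counts correspond to 0.0815 to 0.0909 CPM in a knockout library and 0.0723 to 0.0787 CPM in a wild-type library, and a difference in PARP12 or PARP14 within these intervals was not detectable.

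Levels of different genes were compared as CPM per kilobase of annotated exon. In the wild type the order was DTX2 (1.14 ± 0.280), DTX3 (1.04 ± 0.228), DTX4 (0.219 ± 0.0357), DTX3L (0.155 ± 0.0373), PARP9 (0.0781 ± 0.00687), DTX1 (0.0677 ± 0.0166), PARP10 (0.0445 ± 0.0170), PARP12 (0.00942 ± 0.00247) and PARP14 (0.00240 ± 0.00245), each CPM per kilobase with the SD of 3 libraries. DTX3 was thus at the level of DTX2 in wild-type cells, with ranges that overlapped, whereas DTX4 was below both in every library. The ranges of DTX4 and DTX3L, of PARP9 and DTX1, and of DTX1 and PARP10 also overlapped. In the knockout the order was DTX2 (1.14 ± 0.229), DTX4 (0.317 ± 0.0220), PARP10 (0.0512 ± 0.0112), DTX1 (0.0177 ± 0.00460), PARP12 (0.0110 ± 0.0113), PARP14 (0.00813 ± 0.00510), DTX3 (0.00706 ± 0.000388), PARP9 (0.00109 ± 0.00188) and DTX3L at 0. DTX1, PARP12 and PARP14 overlapped as neighbours in that order, and DTX3 lay within the range of PARP14. DTX2 and DTX4 were therefore the Deltex members with most of the family's reads per kilobase in the knockout.

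**Figure D2:**
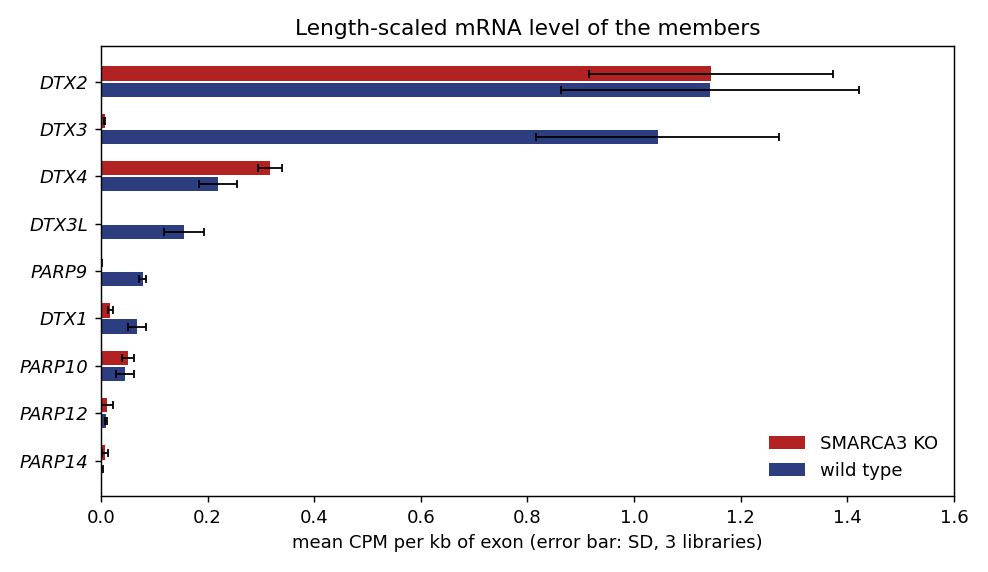
Bars from 0 give the mean CPM per kilobase of exon of each of the 9 genes on a linear axis, with the SD of 3 libraries, the knockout in red above the wild type in blue. DTX2 and DTX3 have wild-type bars of 1.14 and 1.04 with overlapping error bars, and the knockout bars of DTX3, DTX3L and PARP9 are at or barely above 0.

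Neighbouring genes were set beside the lost members. Around DTX3L and PARP9, WDR5B, KPNA1, HSPBAP1 and DIRC2 had log2 fold changes of 0.08, 0.03, 0.12 and 0.10. Between DTX3L and PARP14 lies the macrodomain gene PARP15, with 1 count in the knockout libraries and 0 in the wild-type libraries. Around DTX3, KIF5A, PIP4K2C, ARHGEF25 and SLC26A10 had log2 fold changes of 0.17, -0.09, 0.01 and 0.18. None of these 8 tested neighbours was called, with edgeR adjusted p-values of 0.0760 to 0.956 and 1 unadjusted p under 0.05, that of KIF5A, and none was called under the 14 alternatives run. KPNA1, an importin, measured 103.7 CPM in the knockout and 101.6 CPM in the wild type, and PIP4K2C, a lipid kinase, measured 59.3 CPM in the knockout and 63.2 CPM in the wild type. At both loci the median over the 40 nearest expressed genes was 0.01 on the log2 scale, with 9 called higher and 7 lower around DTX3L and 8 called higher and 5 lower around DTX3. The loss of reads was thus measured for DTX3L and PARP9, and for DTX3, without a like loss in the 8 genes beside them.

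**Figure D3:**
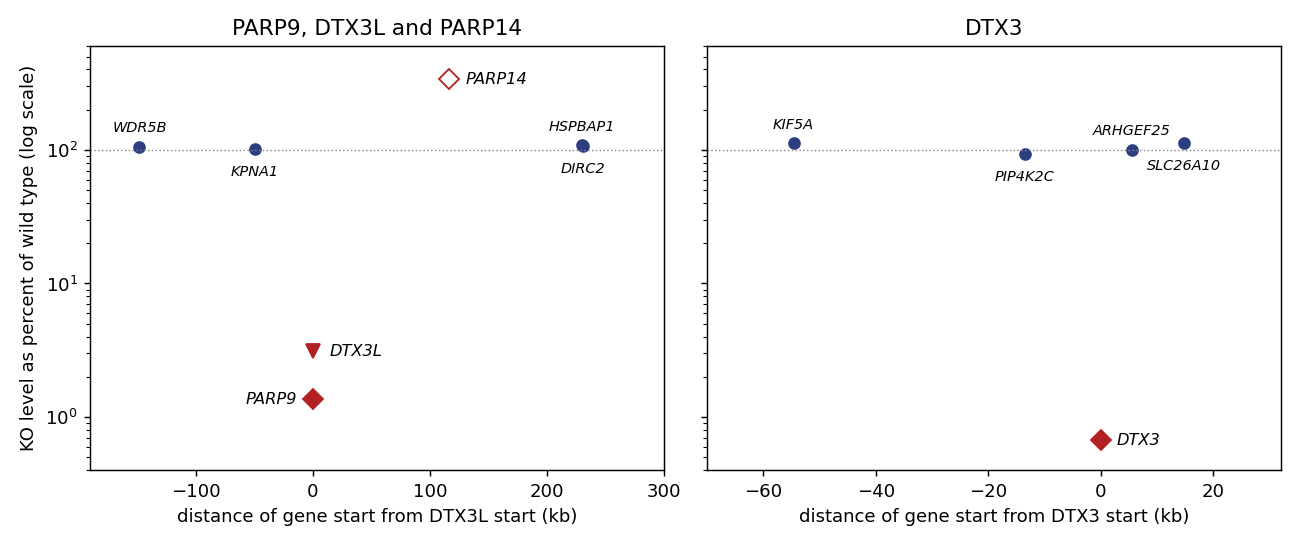
The knockout level as a percent of the wild-type level, on a log axis, is drawn against the distance of each gene start from the start of DTX3L (left) and DTX3 (right) in kilobases, with the dotted line at equal levels. Red diamonds are members, the red triangle is DTX3L at 3.13%, its value at the floor of 3 counts, and the open diamond is PARP14 with 12 counts in all. The blue circles are the 8 tested neighbours, which lie close to the dotted line.

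Genes with the most similar pattern were ranked by the root mean square difference in log2 CPM over the 6 libraries, among genes of like wild-type level. For DTX3L, among 1792 candidates, these were AP000472.2 (0.231), MAGEA6 (0.251) and KCNV1 (0.359). AP000472.2 had 0 counts over the knockout libraries and 101 over the wild-type libraries, and MAGEA6, a cancer-testis antigen with near-identical copies that could share its reads, had 0 over the knockout and 128 over the wild-type libraries. KCNV1, a potassium channel modulator, had 1 over the knockout and 100 over the wild-type libraries. For DTX3, among 1287 candidates, they were the cell adhesion genes NCAM2 (0.288) and MDGA2 (1.10) and the membrane lectin CHODL (0.888), with NCAM2 at 4 counts over the knockout libraries and 519 over the wild-type libraries. NCAM2 was the single candidate close to DTX3, and CHODL and MDGA2 had 10 and 20 counts over the knockout libraries, against 392 and 524 over the wild-type libraries. This likeness rests on the loss that chose DTX3 and DTX3L.

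The other PARP enzymes moved in both directions. Of 13 listed genes 12 were tested, and 3 were called higher, 5 lower and 4 not called, with a median log2 fold change of -0.08, against 0.0031 over all tested genes. The share called was 66.7%, against 31.8% of all tested genes, some of which, like PARP10, had far fewer reads. Over 13 alternatives the number called ran from 1 to 3 higher and from 3 to 5 lower. ZC3HAV1, the zinc-finger antiviral protein, fell to 54.5 ± 1.10 CPM in the knockout, against 104.4 ± 2.42 CPM in the wild type (SD, n = 3 each; log2 fold change -0.94 ± 0.04, SE, edgeR, adjusted p = 1.03e-07). TIPARP, a mono-ADP-ribosyltransferase of the aryl hydrocarbon response, fell by 0.89 on the log2 scale, and its 40 neighbours had a median of -0.63. Relative to them it fell by 0.26 (adjusted p = 0.0137). PARP3, PARP4 and PARP8 fell by 0.33, 0.24 and 0.28 on the log2 scale, calls lost in 5, 1 and 4 of 14 alternatives. PARP2, a DNA-damage PARP, rose to 86.5 CPM in the knockout, against 73.8 CPM in the wild type (log2 fold change 0.23, adjusted p = 0.00328). TNKS, a tankyrase, rose by 0.15, and PARP6 rose by 0.17, and each call was lost in 6 of 14 alternatives. PARP1 measured 1889 CPM in the knockout and 1992 CPM in the wild type and was not called (adjusted p = 0.132). Each of these 12 averaged at least 6.95 CPM in the knockout, which was the mean of PARP3.

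**Figure D4:**
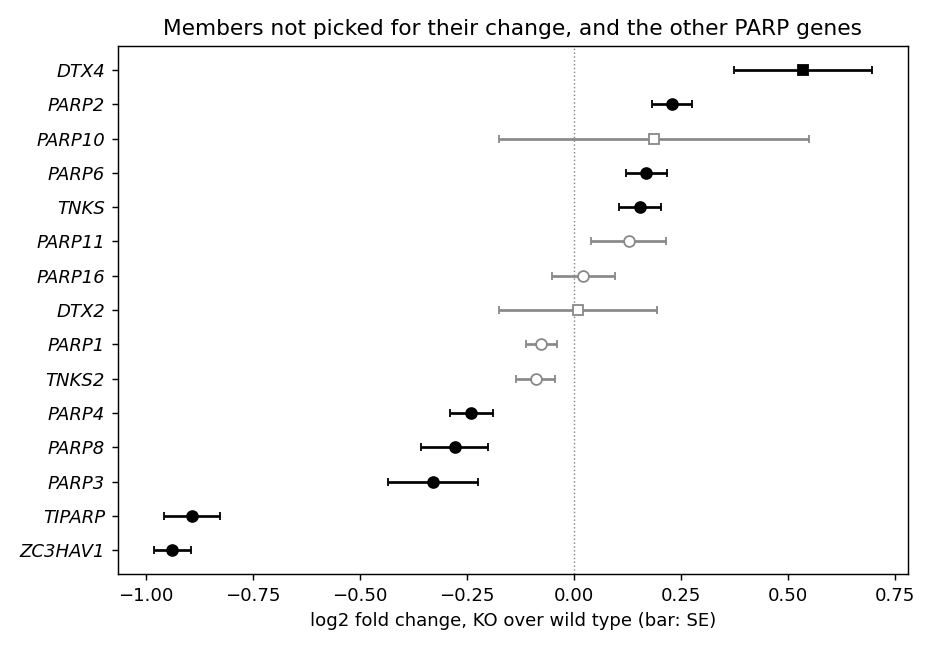
Log2 fold changes of knockout over wild type, with the SE as a bar, are drawn for the 3 tested members that were not picked (squares) and the 12 other tested PARP genes (circles), filled black where called and open grey where not. DTX4 is highest at 0.53, and TIPARP and ZC3HAV1 are lowest at -0.89 and -0.94.

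Genes of ADP-ribose removal and of the supply of its donor NAD were listed as the surrounding pathway. Of 10 tested genes listed for ADP-ribose removal, whose activity was not measured, 2 were called higher, 2 lower and 6 not called. Their median log2 fold change was 0.06, and the 40% called stood against 31.8% of all tested genes. NUDT5, which hydrolyses ADP-ribose, fell to 89.0 CPM in the knockout, against 154 CPM in the wild type (log2 fold change -0.79, edgeR adjusted p = 4.11e-07), and its neighbours had a median of -0.62. Relative to them it fell by 0.17 (adjusted p = 0.0162). ADPRHL1 fell by 0.40, while OARD1, which removes terminal ADP-ribose, and NUDT16 rose by 0.23 and 0.19. PARG, the main poly(ADP-ribose) glycohydrolase, had a log2 fold change of -0.03 and was not called. The calls of ADPRHL1 and OARD1 were lost in 6 and 3 of 14 alternatives.

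Of 8 tested genes of NAD supply, 4 were called lower, 1 higher and 3 not called, with a median log2 fold change of -0.26. The share called was 62.5%, against 31.8% of all tested genes, of which 17.7% were called lower. NMNAT2, the cytosolic NMN adenylyltransferase, measured 3.07 ± 0.237 CPM in the knockout and 6.69 ± 0.797 CPM in the wild type (SD, n = 3 each; log2 fold change -1.12, adjusted p = 4.28e-05). NAPRT and NAMPT, which convert nicotinic acid and nicotinamide, and QPRT of the de novo route fell by 1.09, 0.17 and 0.73 on the log2 scale. The call of NAMPT was lost in 9 of 14 alternatives. NMNAT1, the nuclear enzyme, rose by 0.35 (edgeR adjusted p = 0.00395).

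Deltex proteins act on Notch receptors, so the genes of that pathway were listed by role. Among ligands, 2 of 7 tested were called, and both were higher, a share of 28.6% that is near the 31.8% of all tested genes. JAG1 measured 10.7 ± 1.08 CPM in the knockout and 7.73 ± 0.296 CPM in the wild type (SD, n = 3 each; log2 fold change 0.46, edgeR adjusted p = 0.00292). DLL1 measured 14.4 CPM in the knockout and 9.90 CPM in the wild type, with a log2 fold change of 0.54, and 0.21 relative to its neighbours (adjusted p = 0.151), where the call was lost.

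Among 17 tested receptors and processing enzymes, 4 were called higher, 3 lower and 10 not called, so that 41.2% were called, against 31.8% of all tested genes. NOTCH3 rose to 40.9 ± 3.20 CPM in the knockout, against 17.6 ± 1.19 CPM in the wild type (SD, n = 3 each; log2 fold change 1.22 ± 0.08, SE, edgeR, adjusted p = 8.35e-07). NOTCH2 measured 283 CPM in the knockout and 236.5 CPM in the wild type (log2 fold change 0.26). NOTCH1 rose by 0.62 on the log2 scale (adjusted p = 0.0144), a call lost in 2 of 14 alternatives, and so did LFNG, a glycosyltransferase of Notch, by 0.63. APH1B and PSEN2, parts of gamma-secretase, fell by 0.64 and 0.28, and ADAM17 fell by 0.16, a call lost in 11 of 14 alternatives.

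In the nuclear complex and its repressors 4 of 10 tested genes were called, all higher, where 31.8% of all tested genes were called and 14% were called higher. SPEN (0.33), RBPJ (0.15) and MAML2 (0.61) were among them, each with its log2 fold change. RBPJ is the DNA-binding factor of the pathway, SPEN a corepressor and MAML2 a coactivator, and the call of RBPJ was lost in 7 of 14 alternatives. Of 9 genes listed as targets 7 were tested, and 1 was called higher and 1 lower, or 28.6%, near the share of all tested genes. HES2 and HES5 did not pass the filter, with 3 and 0 counts over the knockout libraries and 29 and 14 over the wild-type libraries. With no filter, 1 listed target was called higher and 3 lower. HEY2 rose by 0.29, a call lost in 6 of 14 alternatives, and HES6 fell by 0.68. HES1, the best known target, measured 18.4 ± 1.29 CPM in the knockout and 20.3 ± 1.56 CPM in the wild type (SD, n = 3 each; log2 fold change -0.14, edgeR adjusted p = 0.216). Among 13 endocytic and ubiquitin ligase genes, of which 30.8% were called, NEURL1 and FBXW7 rose by 0.73 and 0.27, and NEDD4 and ARRB2 fell by 0.38 and 0.29. The call of NEURL1 was lost in 6 of 14 alternatives, and ITCH, a ligase of the Notch receptor, had a log2 fold change of -0.01.

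Receptors, kinases and transcription factors of interferon signalling were listed because DTX3L, PARP9, PARP14 and PARP12 are targets of that pathway. Of 13 tested, 4 were called higher and 9 were not called, with a median log2 fold change of 0.08. The 30.8% called is near the 31.8% of all tested genes. JAK1, a kinase of the interferon receptors, measured 123.8 ± 3.12 CPM in the knockout and 117 ± 0.992 CPM in the wild type (SD, n = 3 each; log2 fold change 0.08, edgeR adjusted p = 0.147). IRF1 and IRF9 had log2 fold changes of 0.11 and 0.14 and were not called. STAT3 rose by 0.32, and by 0.01 relative to its neighbours (adjusted p = 0.849), where its call was lost. TYK2, STAT2 and IFNGR1 rose by 0.28, 0.19 and 0.19, calls lost in 6, 6 and 2 of 14 alternatives. The part of interferon signalling in the DTX3L and PARP9 counts was not tested.

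Genes of the H4 ubiquitin and 53BP1 damage response, in which DTX3L and PARP9 are known to act, had 2 of 17 tested called higher and 2 lower, or 23.5%, against 31.8% of all tested genes. BRCA1 rose by 0.18 on the log2 scale (adjusted p = 0.0211), against a neighbour median of 0.32, and the call was lost in 6 of 14 alternatives. MDC1 rose by 0.12, and RNF8 fell by 0.15, with each call lost in 9 of 14 alternatives. BRCC3 fell by 0.31, and by 0.01 relative to its neighbours (adjusted p = 0.933), where its call was lost. TP53BP1 itself measured 66.0 ± 1.31 CPM in the knockout and 70.0 ± 0.979 CPM in the wild type (SD, n = 3 each), a log2 fold change of -0.09 (edgeR adjusted p = 0.163).

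**Figure D5:**
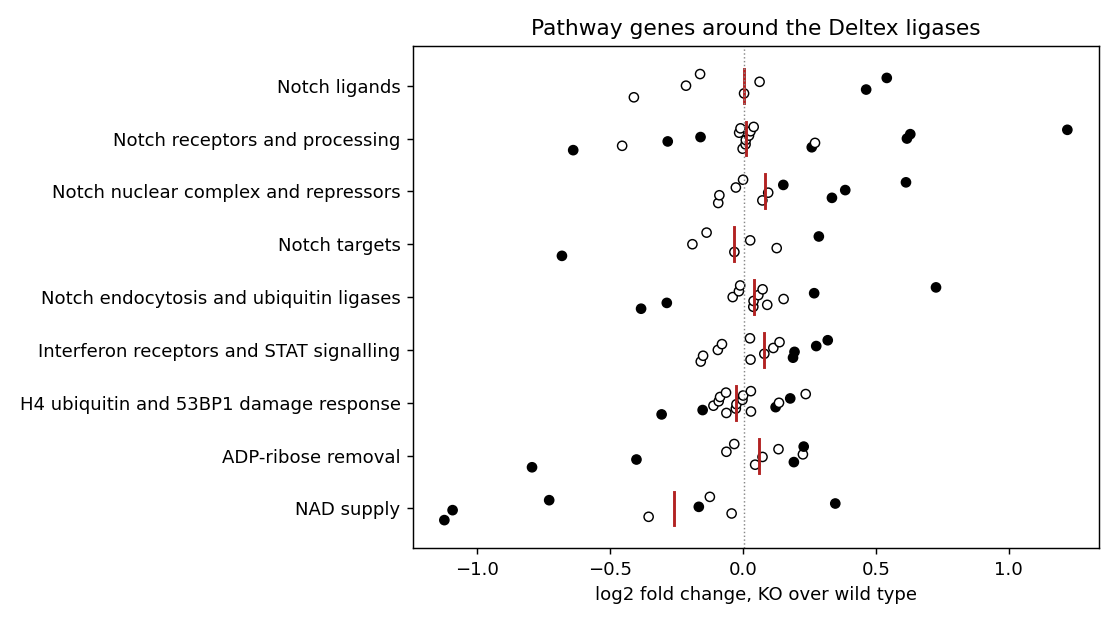
Log2 fold changes of knockout over wild type are drawn for each listed pathway, 1 point a gene, filled where called, with a red bar for the median of the list and a dotted line for the median of all tested genes. Medians lie between -0.26 for NAD supply and 0.08 for the Notch nuclear complex and for interferon signalling.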

How the data were processed

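The data are poly(A) mRNA libraries of HEK293T, 3 from knockout and 3 from wild-type cells, prepared with a strand-preserving kit and read as pairs, per the labels' protocols. The authors deposited raw counts, whole numbers per gene symbol with 1 column a library. Trim Galore, STAR 2.4, Picard, HTSeq 0.9.1, DESeq2 and hg38 are named without a role or order, per the submitters' processing notes. For the counting, annotation release and strand setting are not stated in the sources used here, and reads from exons overlapping on opposite strands may be mixed.

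Counts entered edgeR 4.0.16 (R 4.3.3; filterByExpr, TMM, quasi-likelihood F test, no covariate), knockout against wild type, with two-sided p-values adjusted by Benjamini-Hochberg over 18061 genes and a threshold of 0.05. TMM factors were 0.997 to 1.005. CPM are counts per 1000000 of a library's sum over tested genes, multiplied by its TMM factor. Ratios of summed counts carry exact (Clopper-Pearson) 95% counting intervals, and a group at 0 was set to a floor of 3 counts over the group. Reads are not independent molecules, so intervals and floors cover counting error only. Within groups, libraries varied beyond counting noise (3.56 to 15.3 for chi-square over its degrees of freedom), so all 6 libraries were counted separately. Exact permutation tests used log2(CPM + 0.1).

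Positions and exon lengths are those of GENCODE v29 (GRCh38), which matched 29562 of 56832 symbols and all 9 members. Neighbour medians used 20 positioned genes on each side with a mean of at least 2 CPM. Genes like DTX3L and DTX3 were the 3 nearest in log2 CPM (prior count 2) among those within 0.5 of its wild-type mean. Each list gave up to 2 called genes a direction, those with the smallest p, and others were named after their values were seen. Members and lists were chosen with earlier results of these data known. Alternatives were RLE size factors, other filters, DESeq2 1.42.0, limma-voom 3.58.1, a robust dispersion fit, a replicate block, removal of the neighbour median and each library left out. For the lists and their genes these were added after seeing the data. The test was tried on simulated data. Some listed genes and a motif are not reported here.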

Additional observations from a re-analysis of the deposited data

How the results depend on the processing

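Over 13 alternatives the number of genes called ran from 4232 to 6213, against 5737. Of the 3 tested members that were not picked, 1 was called in the result as given, 2 with no filter on low counts (DTX1 and DTX4, of 6 tested), 0 with DESeq2 and 0 with the replicate block, where in each 1 had an unadjusted p under 0.05. With no filter, 6213 of the 36119 genes with a count were called. Without each library in turn, 1 to 2 members that were not picked were called, of 3 or 4 tested. In the result as given, 31.8% of all tested genes were called. DTX1 was called in each fit without a knockout library and in that without wild-type replicate 1, where it passed the filter through the wild-type libraries in which it is high, so these calls support nothing. The log2 fold change of DTX4 was 0.55 with DESeq2 (adjusted p = 0.0941) and 0.54 with the replicate block (edgeR adjusted p = 0.0536), and 0.41 to 0.63 when a library was left out. Whether the replicate numbers pair the samples is not known. Deviations of same-numbered libraries from their group means correlated across genes at -0.226, -0.014 and -0.055. The 3 deviations of a group sum to 0 for each gene, so these values cannot decide it. Removing the neighbour median gave 0.017 for HLTF (adjusted p = 0.836) and -0.14 for BRCA1, each of the opposite sign. The DTX3L value at the floor ran from 2.87% to 4.85% of the wild-type level when a library was left out. It is highest without a knockout library, where the floor of 3 counts stands over fewer libraries. PARP9 ran from 1.32% to 6.19%, its highest value at the floor without knockout replicate 1, where it had 0 knockout counts, and DTX3 from 0.605% to 0.744%. DTX2 and PARP10 were not called under any alternative that could be fitted. Of 711 recomputed values of 51 other named genes, 655 kept their side of the threshold, 55 lost the call with the same sign, and 1, that of BRCA1, lost it with a changed sign. Among the 655, 4 values of 2 genes that were not called also changed sign. Of 390 recomputed list counts, 336 were within 1.5 times the count given. Except where stated, the cause was not tested. Depth limits DTX1, PARP10, PARP12 and PARP14, whose libraries held at most 14 counts each.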
